A study of Mus musculus with 9 samples.

Results

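Among 12553 genes tested in cells of the mouse spinal meninges, 1221 had a level in the segment labelled T that was set apart from both other segments, C and L. They were chosen as the genes for which T against C and T against L both passed the edgeR quasi-likelihood test in the same direction, at a Benjamini-Hochberg adjusted p under 0.05 over all tested genes. T lay above both in 603 of them and below both in 618. Genes that step from C through T to L in 1 direction are therefore not members.

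The series asks how segments of the spinal cord differ in fibrotic scarring after injury; the labels of these samples name no injury. RNA was sequenced in 9 libraries: C, T and L had 3 each, and what these letters stand for is not written in the labels. The samples were primary cells of the spinal meninges, labelled as fibroblasts from spinal cord tissue. Cells of all 3 groups were collected fresh and received no treatment; the labels do not give the strain, sex or age of the mice, the pooling of animals or a sort of the cells.

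Meningeal fibroblasts make the membranes that wrap the cord. Those of the dura lay down a tough collagenous sheet, those of the arachnoid include an epithelium-like barrier layer joined by tight junctions and rich in transporters, and those of the pia sit on the basement membrane that covers nervous tissue and vessels. These cells also secrete retinoic acid, bone morphogenetic proteins and other signals to the tissue beneath, keep a record of body position in their Hox genes, and can turn into contractile, matrix-depositing cells in scars.

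Total estimated counts ran from 15652558 to 25204310 per library, and 12057 to 12305 genes per library reached 1 TPM (a transcript level scaled to length and to a fixed library total). Sampling noise was exceeded in all 9 pairs of replicates, least for L replicates 1 and 2 and most for T replicates 1 and 2 (chi-square per degree of freedom 3.81 and 21.1). Nothing in the labels ties a replicate to an animal or culture of its own. The p-values thus reflect the scatter of these 9 libraries alone, which may be technical. All 9 genes of a fibroblast list were tested in these libraries, and their summed level was 13630 to 14061 in C, 13652 to 14425 in T and 16160 to 16574 TPM in L. Some members were low: Lum (lumican) stood between 2.80 and 6.48 TPM and Pdgfra, a receptor that marks fibroblasts, between 3.04 and 24.2. Of the 9, T was above both C and L in 2 (Pdgfra and Col3a1) and below both in 3 (Thy1, Col1a1 and Vim).

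T against the mean of C and L was called for 4367 genes, 2248 higher in T (17.9% of those tested) and 2119 lower (16.9%). Most of these did not set T apart: in 2217 (50.8% of the 4367) C differed from both other segments while T and L were not called apart, and in 105 (2.4%) T lay between C and L. The 1221 members made up 28% of the 4367. As a share of all tested genes, T lay above both in 4.8% and below both in 4.92%, together 9.73%. C was set apart from both others in 4868 genes (38.8%) and L in 821 (6.54%), sets that share genes with the members where all 3 segments differed. By limma on log2(TPM + 1) the split against the mean of C and L was 2671 higher and 1593 lower. On that scale the median log2 fold change of T against C over all genes was 0.13, and in edgeR it was 0.02. The adjusted p that decided a call reached 0.0497 just inside the threshold and started at 0.0504 just outside it. Without T replicate 3 the counts were lower, 458 above both and 429 below both, and without T replicate 1 they were 765 and 758.

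**Figure D1:**
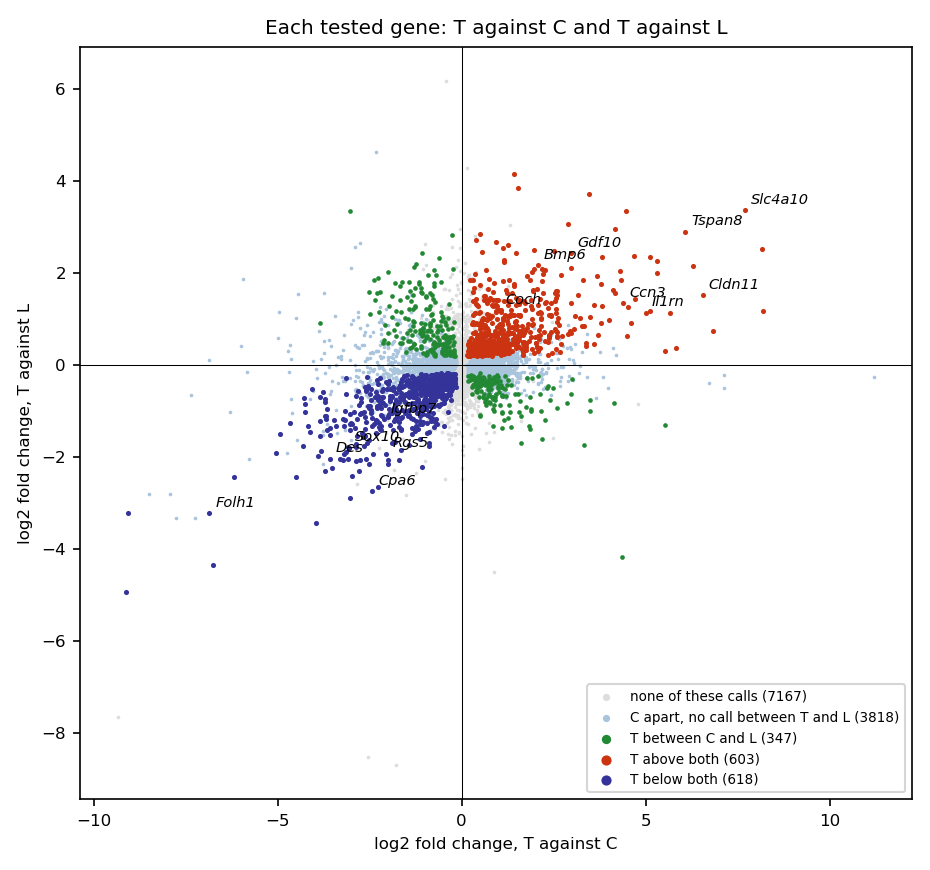
Each point is a tested gene, with the log2 fold change of T against C on the horizontal axis and of T against L on the vertical axis; both axes use the same T libraries. The 603 genes with T above both fill the upper right quadrant, the 618 with T below both the lower left, and the 347 with T between C and L the other 2 quadrants.

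Members did not all have C and L at a shared level. With T above both, L was also above C in 313 of 603 genes (51.9%), no difference between L and C was called in 217 (36%), and L was below C in 73 (12.1%). With T below both, L was also below C in 390 of 618 (63.1%), no difference was called in 207 (33.5%), and L was above C in 21 (3.4%). A missed call does not show that L and C had the same level. The size of a member's separation is given here by its smaller step, the smaller in size of the fold changes of T against C and T against L (the step to L in 425 of the 603 and 502 of the 618). Its median was 1.43-fold above and 1.44-fold below. It reached 2-fold in 120 genes above both and 140 below both, and 4-fold in 20 and 22. On the scale of library-size-corrected counts, all 3 T libraries lay above the other 6 in 590 of the 603 genes and below them in 597 of the 618, where 7.95% and 7.7% of all tested genes had no such overlap. Members were chosen on these same libraries, so this separation follows largely from the choice and is no added evidence.

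**Figure D2:**
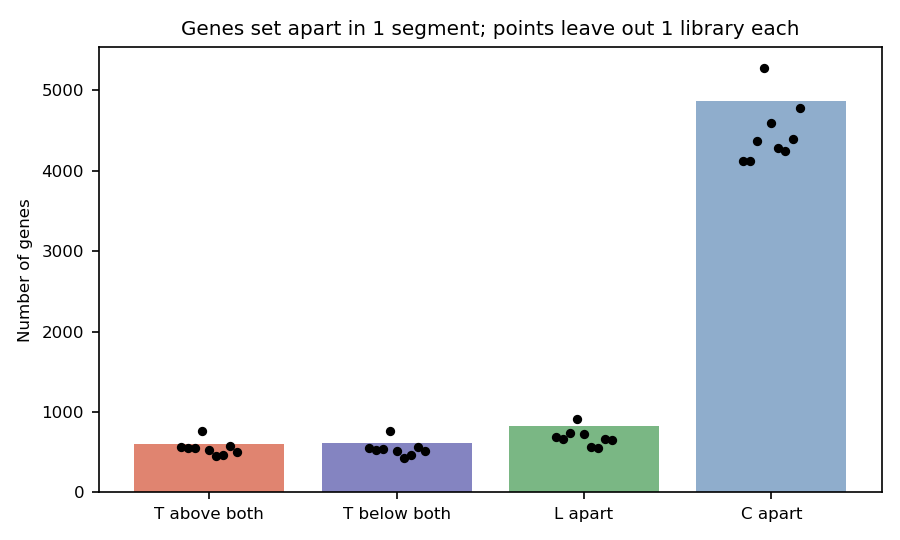
Bars give the number of genes set apart in a segment (vertical axis), and the 9 points on each bar the same count with 1 library left out. The bars for T above both and T below both stand at 603 and 618, that for L apart at 821 and that for C apart at 4868, and their points span 458 to 765, 429 to 758, 554 to 914 and 4118 to 5274.

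Genes highest in T by the widest margin included membrane transporters, keratins and secreted signals. Slc4a10, a sodium-dependent bicarbonate transporter, had 88.4, 138 and 123 TPM in T, against 0.493, 0.467 and 0.577 in C and 10.1, 13.6 and 9.67 in L. It was 206-fold higher in T than in C (log2 fold change 7.69, SE 0.21) and 10.4-fold higher than in L (log2 3.37, SE 0.15), with edgeR adjusted p-values of 4.67e-12 and 6.63e-09. All T libraries stood far above the L libraries, which in turn stood above those of C. Slc26a7, an anion exchanger, had 2.76, 5.09 and 6.05 TPM in T, against 0.0660, 0.229 and 0.175 in C and 0.480, 0.299 and 0.332 in L. There C and L were both near 0, and T was 22.1-fold and 10.2-fold higher. Gdf10, a ligand of the BMP and TGF-beta family, had 13.7, 12.4 and 12.9 TPM in T, against 1.62, 1.59 and 1.35 in C and 2.38, 2.46 and 2.26 in L. Its step was 5.41-fold over L (log2 2.44, SE 0.11) and 7.87-fold over C, with narrow spreads in each segment. Tspan8, a tetraspanin of the cell surface, rose above both as well, at 11.5 ± 3.6 TPM in T against 0.152 ± 0.0476 in C and 1.54 ± 0.0867 in L (SD, n = 3 in each segment, as for all means below). Ptgdr, a receptor for prostaglandin D2, had 370 counts over the T libraries, 57 over L and 1 over C. The ratio of T to C, scaled to library size, was 405.5 with a 95% counting interval from 72.33 to 16060, and T was 5.78-fold above L (log2 2.53, SE 0.23). Such an interval covers counting error only. The other genes with the widest margin were Ctxn3, Wnt10a, Bend5, Nalf2, Abcb1a, Krt15, Krt75, Dpp6 and Krtdap, with smaller steps from 4.27-fold for Krtdap to 11.1-fold for Ctxn3. Genes named here come from a stated rule on size, abundance and list membership, and the others (Kcnj2, Cldn11, Klf5, Tjp1, Wnt6, Bmp4, Foxd3, Sox10, Acta2 and further members and non-members of the lists) were chosen after their values were seen.

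Among genes above both with a smaller step of at least 1.5-fold, the most abundant included Il1rn, the secreted antagonist of the interleukin-1 receptor. It had 1306, 1313 and 1177 TPM in T, against 35.9, 37.6 and 33.4 in C and 537, 549 and 555 in L. T was 32.0-fold higher than in C and 2.21-fold higher than in L (log2 5.00, SE 0.07 and 1.15, SE 0.06), and the 3 segments formed 3 separate levels. Dpysl3, a cytoskeletal protein known from growing axons, stood at 313 ± 17.5 in C, 1009 ± 44.7 in T and 539 ± 26.0 TPM in L. Ccn3, a matricellular protein, stood at 35.4 ± 2.65 in C, 814 ± 78.6 in T and 316 ± 26.9 TPM in L. In a different pattern, Coch (cochlin, a secreted matrix protein) had 682, 819 and 799 TPM in T, against 374, 330.4 and 345 in C and 339, 350.0 and 303 in L. It was 2.01-fold higher in T than in C and 2.29-fold higher than in L, with L slightly below C. Plpp3, a lipid phosphate phosphatase, stood at 211 ± 6.77 in C, 455 ± 10.9 in T and 166 ± 6.29 TPM in L, and Igfbp6, which binds insulin-like growth factors, at 209 ± 5.51 in C, 494 ± 36.3 in T and 307 ± 24.0 TPM in L. In each of these 6 genes all T libraries lay above all 6 others, as the rule that named them required.

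**Figure D3:**
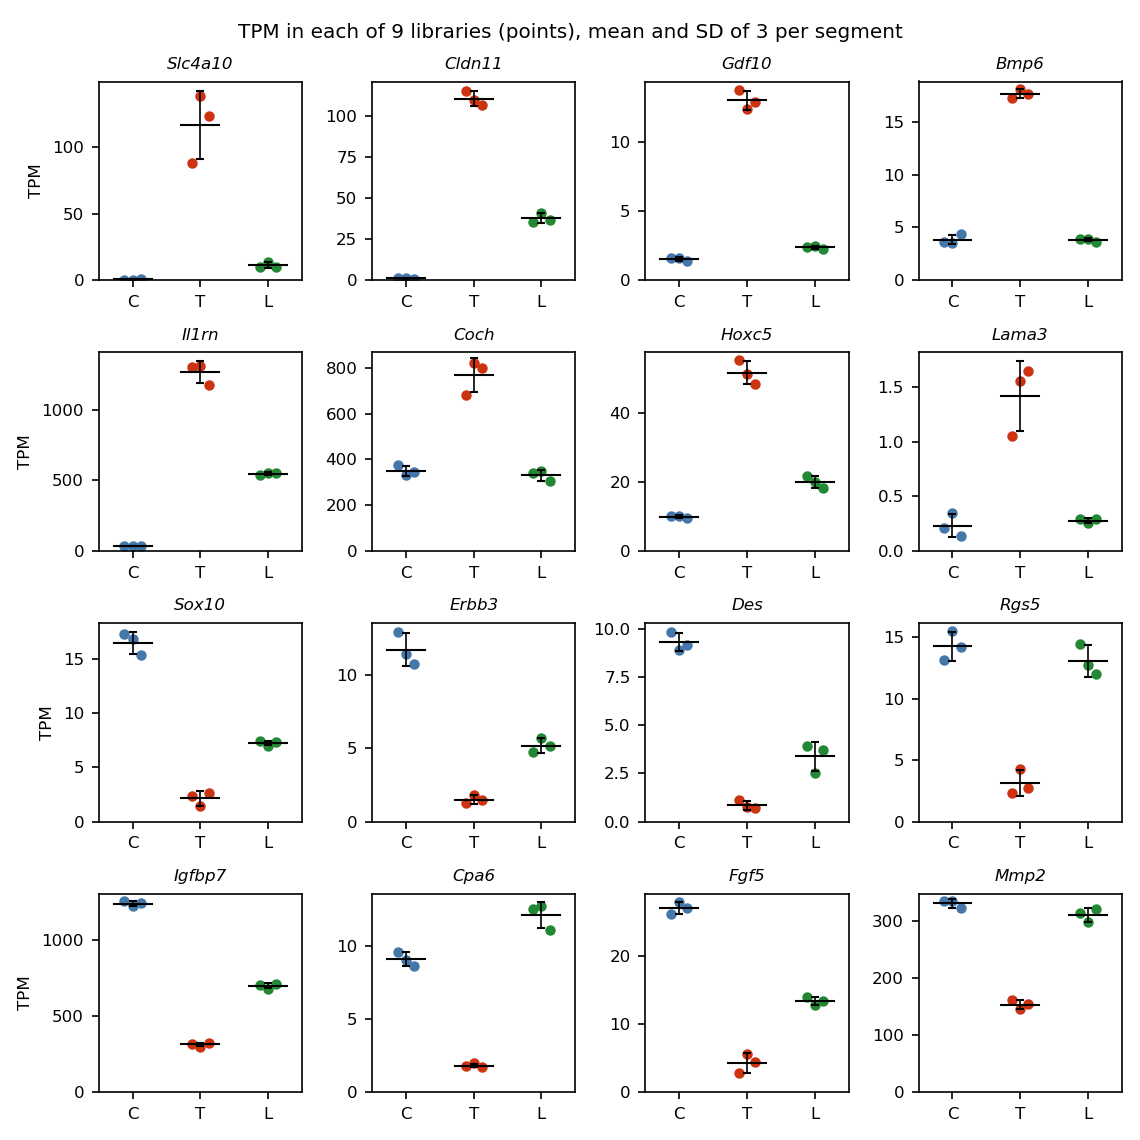
TPM of 16 members in each library (vertical axis, a scale of its own per gene, starting at 0), by segment; points are libraries, long bars means and short bars the SD of 3. In the upper 8 genes the T points lie above all others, as for Slc4a10 at 88.4 to 138 TPM, and in the lower 8 they lie below all others, as for Cpa6 at 1.72 to 1.98.

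The promoter windows of 4 members are shown to set genes with T above both beside genes with T below both. The sequences are from RefSeq on build GRCm38.p6 and hold the 250 bases before the annotated start, read 5′ to 3′ on the strand of the gene. Capitals mark GC boxes (GGGCGG, or CCGCCC when it lies on the other strand), the motif found in most windows of expressed genes here. Cldn11 (chr3:31149670-31149919, plus strand) and Bmp6 (chr13:38345466-38345715, plus strand) are members above both, and Igfbp7 (chr5:77408046-77408295, minus strand) and Foxd3 (chr4:99656049-99656298, plus strand) are members below both.
Cldn11: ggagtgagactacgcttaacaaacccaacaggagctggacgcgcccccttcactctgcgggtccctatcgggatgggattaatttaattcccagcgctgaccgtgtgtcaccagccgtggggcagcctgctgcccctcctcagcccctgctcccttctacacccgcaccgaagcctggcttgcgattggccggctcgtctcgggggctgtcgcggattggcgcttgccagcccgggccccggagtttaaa
Bmp6: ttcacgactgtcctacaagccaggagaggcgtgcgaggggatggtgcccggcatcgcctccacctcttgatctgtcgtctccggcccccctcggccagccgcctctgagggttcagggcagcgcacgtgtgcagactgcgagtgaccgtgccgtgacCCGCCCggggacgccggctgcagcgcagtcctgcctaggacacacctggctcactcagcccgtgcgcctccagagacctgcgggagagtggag
Igfbp7: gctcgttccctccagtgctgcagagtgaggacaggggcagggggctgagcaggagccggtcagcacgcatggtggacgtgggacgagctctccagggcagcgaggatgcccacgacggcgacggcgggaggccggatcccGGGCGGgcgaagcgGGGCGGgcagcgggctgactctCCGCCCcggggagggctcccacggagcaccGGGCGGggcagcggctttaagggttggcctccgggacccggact
Foxd3: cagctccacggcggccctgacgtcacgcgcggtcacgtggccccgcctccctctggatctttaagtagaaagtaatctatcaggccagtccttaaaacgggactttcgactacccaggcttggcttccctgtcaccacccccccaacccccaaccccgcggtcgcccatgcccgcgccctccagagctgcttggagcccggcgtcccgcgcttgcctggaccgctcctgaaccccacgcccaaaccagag
The Igfbp7 window held 4 GC boxes, that of Bmp6 1 and those of Cldn11 and Foxd3 0. Of the members, 350 above both and 353 below both had a single promoter entry, as had 7733 of the tested genes. A GC box on either strand stood within the 250 bases before the start in 63.7% of genes above both, 67.1% of those below both and 63% of all tested genes. Other motifs were searched in the same way, on both strands. TATAAA was found in 8.57%, 7.37% and 6.14%, CCAAT in 28.9%, 37.1% and 37.5%, and the SOX motif ACAATG in 5.14%, 4.53% and 5.46%. TGANTCA (AP-1) was found in 5.71%, 5.38% and 3.92%, GGAATG (TEAD) in 10%, 14.4% and 10.6%, and GCCNNNGGC (TFAP2) in 20%, 25.5% and 21%. Among all 22862 promoters in the table, expressed or not, 32.4% held a GC box. These matches are letters in a window and were not tested further.

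Among lists with at least 5 tested members, markers of the arachnoid barrier had the largest share above both. Of 19 markers 15 were tested, while Krt8, Krt18, Slc47a1 and Tfap2b did not pass the filter on low values. T lay above both in 10 of the 15 and below both in 2, against 4.8% and 4.92% of all tested genes. Wnt10a, 1 of the 10, passed the filter through the T libraries alone. The median log2 fold change of T against the mean of C and L was 1.59 for the list and 0.01 for all genes. Cldn11, the claudin of tight junction strands in the arachnoid and in myelin, had 115, 110.1 and 107 TPM in T, against 1.40, 1.14 and 0.772 in C and 35.4, 41.2 and 36.8 in L. It was 93.3-fold higher in T than in C (log2 fold change 6.54, SE 0.14) and 2.89-fold higher than in L (log2 1.53, SE 0.09). Cdh1, the adhesion protein E-cadherin, had 5.65, 6.06 and 6.41 TPM in T, against 0.103, 0.214 and 0.102 in C and 1.81, 1.05 and 1.52 in L, a step of 39.8-fold over C and 4.05-fold over L. Both genes thus had C near 0, L in between and T highest. Abcb1a, the drug efflux pump P-glycoprotein, stood at 1.18 ± 0.0151 in C, 17.9 ± 2.39 in T and 3.47 ± 0.893 TPM in L, and Abcg2, another efflux pump, at 98.5 ± 3.92 in C, 146 ± 11.4 in T and 115 ± 3.07 TPM in L. Dpp6, an accessory subunit of potassium channels, stood at 1.12 ± 0.112 in C, 9.46 ± 0.317 in T and 2.13 ± 0.286 TPM in L, and Klf5, a transcription factor of epithelia, at 14.4 ± 0.384 in C, 70.3 ± 2.40 in T and 34.3 ± 4.32 TPM in L. Tjp1 (ZO-1, the scaffold beneath tight junctions) was 1.52-fold higher in T than in C and 1.41-fold higher than in L. Below both were Tfap2a, a transcription factor (5.48-fold and 1.96-fold lower), and Aldh1a2, which makes retinoic acid (8.75-fold and 1.21-fold lower). The call for Aldh1a2 ended without T replicate 3 and without L replicate 2. In bulk RNA, a change in the number of cells of a type and a change in RNA per cell cannot be told apart, here and in all groups that follow. The summed level of the list was 693 to 815 TPM in T, 455 to 470 in C and 394 to 431 in L.

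Tested epithelial markers moved with the arachnoid list, which shares Cdh1, Krt8 and Krt18 with theirs. Of these shared genes only Cdh1 was tested. Only 3 of 11 passed the filter on low values, all 3 with T above both, and their summed level was 69.3 to 78.3 TPM in T, 25.4 to 28.2 in C and 30.9 to 40.4 in L. Krt15, a keratin of basal epithelium, had 6.09, 5.96 and 5.42 TPM in T, against 0.201, 0.139 and 0.106 in C and 1.03, 1.09 and 1.23 in L, and Krt19, a keratin of simple epithelium, 66.6, 57.2 and 61.7 TPM in T, against 25.1, 27.8 and 26.0 in C and 33.5, 28.7 and 37.6 in L. Krt15 was 5.08-fold and Krt19 1.82-fold above L, while Epcam reached at most 0.211 TPM and Krt8 0.188 in any library. Krt75, a keratin outside the list, stood at 0.211 ± 0.134 in C, 9 ± 0.366 in T and 1.82 ± 0.500 TPM in L. The part of epithelial cells in these results was not tested.

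Among solute carriers and ion transport genes T lay above both in 15 of 49 tested (30.6%) and below both in 6 (12.2%), against 4.8% and 4.92% of all tested genes. Kcnj2, an inward rectifier potassium channel, had 19.9, 25.1 and 23.1 TPM in T, against 1.319, 0.891 and 0.961 in C and 5.38, 5.56 and 5.27 in L. It was 19.7-fold higher in T than in C (log2 fold change 4.30, SE 0.13) and 4.14-fold higher than in L (log2 2.05, SE 0.11), with no overlap of the segments. Slc13a5, a citrate transporter, stood at 2.26 ± 0.272 in C, 13.4 ± 2.00 in T and 4.71 ± 0.477 TPM in L, and Car13, a carbonic anhydrase, at 64.7 ± 3.54 in C, 415 ± 38.3 in T and 175 ± 11.7 TPM in L. The lactate carriers split by direction. Slc16a1 (MCT1) had 32.0, 37.7 and 36.8 TPM in T, against 12.3, 11 and 11.5 in C and 18.0, 19.4 and 16.4 in L, so T was highest. Slc16a3 (MCT4) had 2.62, 2.12 and 2.05 TPM in T, against 20.1, 23.2 and 22.8 in C and 10.9, 9.78 and 12.1 in L, and T was lowest, 9.34-fold under C and 4.17-fold under L. Outside this list, Aqp4, a water channel of astrocytes, stood at 12.4 ± 1.39 in C, 31.7 ± 6.10 in T and 5.35 ± 0.244 TPM in L, with L lowest and T highest.

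Dura markers and small leucine-rich proteoglycans also had more members above both than below, where all tested genes had 4.8% above and 4.92% below. T lay above both in 7 of 13 tested dura markers and below both in 1, and in 6 of 12 proteoglycans and below both in none by the edgeR test (none either at an unadjusted p under 0.05 or in any other tool run); the median log2 fold change against the mean of C and L was 0.76 and 0.70. Alpl, the alkaline phosphatase of mineralizing tissue, stood at 1.76 ± 0.784 in C, 5.08 ± 0.439 in T and 2.54 ± 0.871 TPM in L. Fxyd5, a regulator of the sodium pump, had 215, 214 and 203 TPM in T, against 127, 121 and 125 in C and 111, 111 and 113 in L, and Mgp (matrix Gla protein, an inhibitor of mineralization) went the other way at 1728 ± 76.1 in C, 392 ± 33.8 in T and 657 ± 49.4 TPM in L. Matn4, a matrix filament protein, was 1.89-fold higher in T than in C and 2.48-fold higher than in L at low levels (at most 4.01 TPM), and its call ended without C replicate 3 or T replicate 1. Of the proteoglycans, which bind collagen fibrils and set their width, Omd (osteomodulin) had 16.6, 25.5 and 23.6 TPM in T, against 0.806, 1.40 and 2.05 in C and 5.51, 7.12 and 6.11 in L. It was 13.7-fold higher in T than in C (log2 fold change 3.77, SE 0.24) and 3.41-fold higher than in L (log2 1.77, SE 0.20). Fmod (fibromodulin) stood at 146 ± 2.64 in C, 361 ± 20.7 in T and 232 ± 9.98 TPM in L, Podn (podocan) at 14.6 ± 0.583 in C, 47.2 ± 2.95 in T and 27.8 ± 0.594 TPM in L, Ogn (osteoglycin) at 17.7 ± 3.86 in C, 152 ± 35.9 in T and 91.3 ± 7.76 TPM in L and Epyc (epiphycan) at 0.201 ± 0.117 in C, 2.44 ± 1.09 in T and 0.716 ± 0.244 TPM in L. Dcn (decorin) was not set apart, at 51.4 ± 2.73 in C, 77.0 ± 13.4 in T and 73.6 ± 7.78 TPM in L: its step over L had an edgeR adjusted p of 0.830. The proteoglycan count was 4 to 7 over all alternatives.

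BMP genes set apart in T were mostly above both, in 7 of 27 tested with 1 below (25.9% and 3.7%, against 4.8% and 4.92% of all tested genes). Bmp6, a ligand, had 17.2, 18.1 and 17.7 TPM in T, against 3.62, 3.56 and 4.37 in C and 3.94, 3.91 and 3.65 in L. It was 4.19-fold higher in T than in C (log2 fold change 2.07, SE 0.10) and 4.55-fold higher than in L (log2 2.19, SE 0.10); C and L overlapped. Bmper, which binds BMPs outside the cell, had 120.0, 127 and 114 TPM in T, against 41.0, 42.9 and 39.1 in C and 35.6, 36.7 and 33.9 in L, 2.70-fold higher than in C and 3.33-fold higher than in L. Bmp4 stood at 43.3 ± 3.44 in C, 358 ± 7.28 in T and 214 ± 4.31 TPM in L, and Smad9, a transducer inside the cell, at 4.51 ± 0.329 in C, 17.1 ± 0.673 in T and 9.01 ± 0.114 TPM in L. Thus the genes highest in T included the ligands Gdf10, Bmp6, Bmp4 and Bmp8a, a binding protein and a transducer. The other 19 of the 27 were not set apart, and the list's median log2 fold change was 0.16 against the mean of C and L and -0.02 against C. Bambi, a decoy receptor, was the member below both, with adjusted p-values near the threshold (0.0420 and 0.0482 by the edgeR quasi-likelihood test), and the count below both was 0 under 12 of 17 alternatives, among them leaving out any C library, T replicate 2, T replicate 3, L replicate 2 or L replicate 3. Without a library the count above both was 5 to 7.

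Wnt genes had 11 of 40 tested members above both and 3 below (27.5% and 7.5%, against 4.8% and 4.92% of all tested genes). The count above both was 7 without T replicate 3. Wnt10a had 3.74, 2.51 and 2.49 TPM in T, against 0.0920, 0.192 and 0.146 in C and 0.473, 0.250 and 0.348 in L. It was 17.9-fold higher than in C and 7.86-fold higher than in L, on 168 counts over the T libraries. Wnt6, its neighbour on chromosome 1, had 69.0, 55.1 and 56.2 TPM in T, against 2.26, 3.08 and 2.05 in C and 38.2, 36.7 and 38.8 in L, 22.6-fold higher in T than in C and 1.56-fold higher than in L. The members below both were the ligands Wnt2, Wnt2b and Wnt10b. Wnt10b had 0.130, 0.637 and 0.182 TPM in T, against 2.41, 2.63 and 1.69 in C and 1.96, 1.38 and 1.75 in L, 6.86-fold lower than in C and 4.95-fold lower than in L, and Wnt2b stood at 2.55 ± 0.199 in C, 0.216 ± 0.0338 in T and 0.578 ± 0.0729 TPM in L. The call for Wnt2b ended in limma on log2(TPM + 1). Above both were also some receptors and secreted inhibitors, among them Fzd4, a frizzled receptor, at 1.65 ± 0.230 in C, 7.79 ± 0.964 in T and 3.46 ± 0.354 TPM in L, Wif1, which traps Wnt ligands, at 3.17 ± 0.433 in C, 21.3 ± 2.46 in T and 10.4 ± 0.354 TPM in L, and Notum, which inactivates them, at 1.81 ± 0.940 in C, 4.04 ± 0.819 in T and 1.25 ± 0.417 TPM in L.

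Hox genes set apart in T were above both, in 3 of 13 tested members of paralog groups 1 to 5, 4 of 12 of groups 6 to 9 and 0 of 5 of groups 10 to 13, with none below both by edgeR. All tested genes had 4.8% above both and 4.92% below. None was below both at an unadjusted p under 0.05, and 1 of groups 10 to 13 was with no filter on TPM. Hoxc5 had 55.5, 51.5 and 48.7 TPM in T, against 10.2, 10.2 and 9.60 in C and 21.7, 19.9 and 18.3 in L. It was 4.77-fold higher in T than in C (log2 fold change 2.25, SE 0.09) and 2.57-fold higher than in L (log2 1.36, SE 0.09). Hoxc4 had 22.4, 23.2 and 19.8 TPM in T, against 8.67, 9.02 and 8.21 in C and 10.8, 10.9 and 11.2 in L, again highest in T, with no call between L and C. Hoxc6, next to Hoxc5, stood at 19 ± 1.60 in C, 135 ± 4.97 in T and 96.4 ± 5.26 TPM in L, and Hoxa7 at 11.8 ± 0.660 in C, 154 ± 6.15 in T and 109 ± 2.01 TPM in L, both with L close to T. Hoxb6 had 40.9, 36.7 and 42.9 TPM in T, against 28.1, 29.6 and 27.5 in C and 24.6, 24.6 and 21.9 in L, 1.45-fold higher in T than in C and 1.57-fold higher than in L, and Hoxb7 stood at 36.0 ± 1.37 in C, 61.7 ± 2.49 in T and 45.8 ± 1.76 TPM in L. Hoxa5 was the weakest, 1.20-fold higher than in C and 1.5-fold higher than in L, and its call ended without C replicate 1, C replicate 2 or T replicate 3.

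Other patterning transcription factors went in both directions, with 6 of 50 above both and 6 below (12% each, against 4.8% and 4.92% of all tested genes). Gata3 had 0.0440, 0.186 and 0.234 TPM in T, against 1.70, 1.10 and 1.82 in C and 1.02, 1.06 and 1.56 in L, 15.5-fold lower in T than in C and 10.8-fold lower than in L. Msx2, a homeobox factor induced by BMP, had 23.2, 22.4 and 21.0 TPM in T, against 80.8, 76.6 and 76.7 in C and 54.1, 53.7 and 54.7 in L, and Meis2, a Hox cofactor, 6.67, 7.4 and 7.68 TPM in T, against 17.9, 17.7 and 19.4 in C and 15.6, 16.6 and 14.4 in L. All 3 were lowest in T with no overlap. Vax2, a homeobox factor of the ventral eye, stood at 4.66 ± 1.36 in C, 0.959 ± 0.359 in T and 3.57 ± 0.402 TPM in L. Above both, Meox2 (mesenchyme homeobox) stood at 3.73 ± 0.336 in C, 21.9 ± 2.77 in T and 8.54 ± 0.700 TPM in L and Foxd2 (forkhead) at 2.60 ± 0.488 in C, 12 ± 1.92 in T and 4.73 ± 1.02 TPM in L. Gli2, an effector of Hedgehog, was 3.24-fold higher in T than in C and 1.43-fold higher than in L, and Gas1, a Hedgehog coreceptor, 3.28-fold over C and 2.31-fold over L; the call for Gli2 ended in limma on log2(TPM + 1). Heyl, a Notch target, was 30.6-fold lower than in C and 2.80-fold lower than in L, at 0.0920, 0.0790 and 0.190 TPM in T and 0.418, 0.375 and 0.243 in L, and its call ended under 6 alternatives.

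Growth factors and their receptors had 10 of 56 tested members above both and 14 below (17.9% and 25%, against 4.8% and 4.92% of all tested genes). Pdgfra, a receptor of platelet-derived growth factor, had 21.7, 24.1 and 24.2 TPM in T, against 3.51, 4.06 and 3.04 in C and 7.87, 7 and 6.41 in L. It was 5.95-fold higher in T than in C (log2 fold change 2.57, SE 0.09) and 3.05-fold higher than in L (log2 1.61, SE 0.09). Igf2, an insulin-like growth factor, stood at 11 ± 1.317 in C, 44.6 ± 0.551 in T and 17.9 ± 1.324 TPM in L. Among imprinted genes, Igf2 and Dio3, which inactivates thyroid hormone, were above both, Dio3 at 2.26 ± 0.687 in C, 6.62 ± 1.12 in T and 0.489 ± 0.154 TPM in L, while Mest was below both at 22.8 ± 2.03 in C, 10.5 ± 0.0741 in T and 25.9 ± 2.31 TPM in L. Fgf5, a fibroblast growth factor, had 2.85, 5.65 and 4.45 TPM in T, against 26.2, 27.9 and 27.1 in C and 14, 12.8 and 13.4 in L, 7.36-fold lower in T than in C and 3.45-fold lower than in L. Ngfr, the low-affinity receptor of neurotrophins, had 17.4, 14.9 and 17.7 TPM in T, against 100.2, 99.5 and 96.7 in C and 46.8, 46.5 and 50.9 in L, and Nrg1 (neuregulin) stood at 12.9 ± 1.81 in C, 2.64 ± 0.447 in T and 7.72 ± 1.89 TPM in L. In these 3 genes C was highest, L intermediate and T lowest. Of markers of fibroblast progenitors, 6 of 24 were above both and 3 below. Lepr, the leptin receptor, had 27.1, 45.9 and 42.0 TPM in T, against 3.50, 2.80 and 4.26 in C and 9.64, 12.7 and 9.06 in L, and Scara5, a ferritin receptor, stood at 0.612 ± 0.0267 in C, 195 ± 6.54 in T and 84.9 ± 5.2 TPM in L, while Thy1 was below both at 871 ± 14 in C, 156 ± 11.7 in T and 232 ± 12.7 TPM in L. Ednra, the endothelin receptor, stood at 6.42 ± 0.526 in C, 26.4 ± 0.793 in T and 11.1 ± 0.142 TPM in L, highest in T.

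Macrophage markers had a summed level of 304 to 314 TPM in T, against 196 to 213 in C and 105 to 111 in L. T was above both in 2 of 12 tested members (16.7%) and higher than the mean of C and L in 8. Of all tested genes, 4.8% were above both, 4.92% below both and 17.9% higher than that mean. L was set apart from both others in 8 of the 12 markers. The median log2 fold change of T in this list was 0.23 against C and 1.14 against L. Lyz2 (lysozyme) had 230.2, 228 and 226 TPM in T, against 137, 121 and 126 in C and 73.1, 72.1 and 68.7 in L, and Cd68 20.01, 18.4 and 18.6 TPM in T, against 13.6, 13.5 and 12 in C and 8.89, 6.91 and 6.87 in L. Both were lowest in L, and Ptprc (CD45) reached at most 0.718 TPM in any library. Among complement genes, 4 of 16 were above both and 1 below, with Clu (clusterin) at 27.3 ± 1.46 in C, 43.2 ± 2.02 in T and 20.8 ± 1.17 TPM in L; the count above both was 2 without L replicate 3. C1s1 was 2.40-fold higher than in C and 1.86-fold higher than in L, a call that ended under 9 alternatives. Astrocyte and ependymal markers had 3 of 10 above both, Aqp4, Slc1a2 and Gfap, and 1 below. Gfap had 112, 102 and 105 TPM in T, against 72.3, 82.0 and 71.4 in C and 15.3, 15.4 and 16.9 in L, so L was far below both other segments and T only 1.30-fold above C. The summed level of that list was highest in C (574 to 589 TPM, against 327 to 360 in T and 229 to 252 in L). The part of these cell types in the results was not tested.

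**Figure D4:**
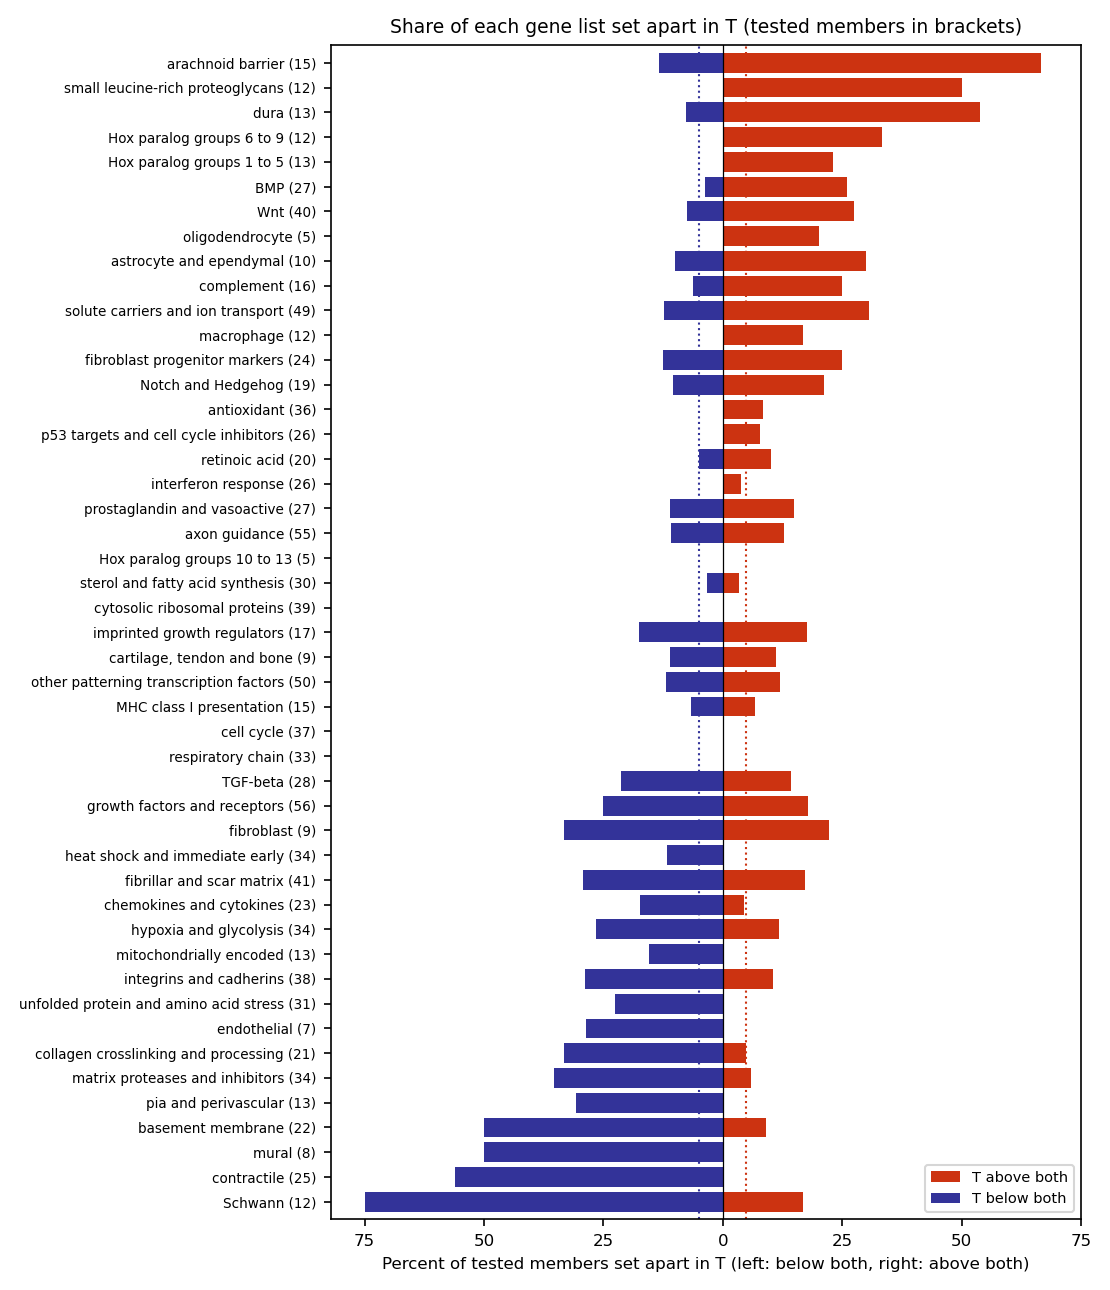
For each of 47 gene lists with at least 5 tested members, the share of tested members with T above both (right) and below both (left) as a percent on the horizontal axis; dotted lines mark the shares among all tested genes, 4.8% and 4.92%. The arachnoid barrier list stands out to the right (10 of 15) and the Schwann (9 of 12) and contractile (14 of 25) lists to the left.

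Genes lowest in T by the widest margin included peptidases, adhesion proteins and genes of nerve and vessel wall cells. Folh1, a carboxypeptidase that releases glutamate, had 0.278, 0.244 and 0.275 TPM in T, against 24.8, 27.8 and 28.6 in C and 2.47, 2.33 and 2.2 in L. It was 116-fold lower in T than in C (log2 fold change -6.85, SE 0.16) and 9.35-fold lower than in L (log2 -3.22, SE 0.22). Cpa6, a secreted carboxypeptidase, had 1.81, 1.98 and 1.72 TPM in T, against 9.62, 9.06 and 8.65 in C and 12.5, 12.7 and 11.1 in L. It was 5.39-fold lower in T than in C and 6.66-fold lower than in L, and L lay above C. Plac8 had 2.44, 3.21 and 1.16 TPM in T, against 18.2, 17.8 and 13.5 in C and 12.7, 10.4 and 12.7 in L, and Esam, an adhesion protein of endothelium and platelets, 0.375, 1.00 and 0.815 TPM in T, against 6.24, 6.06 and 5.52 in C and 2.78, 2.65 and 2.33 in L. T lay below every other library in each of these genes, as the rule that named them required. The others with the widest margin were Tex15, Cdh19, Slc16a3, Ppp1r1a, Tcp11x2, Des, Psme2b, L1cam, Rgs5 and Vax2, with smaller steps between 3.79-fold for Vax2 and 4.46-fold for Tex15. Psme2b and Tcp11x2 have close copies in the genome, so their values are uncertain.

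Among genes below both with a smaller step of at least 1.5-fold, the most abundant included secreted and matrix proteins. Igfbp7, which binds insulin-like growth factors and sits in vessel basement membranes, had 321, 302 and 322 TPM in T, against 1255, 1222 and 1246 in C and 708, 683 and 713 in L. It was 4.29-fold lower in T than in C (log2 fold change -2.10, SE 0.06) and 2.26-fold lower than in L (log2 -1.17, SE 0.06). Gsn (gelsolin, which severs actin filaments) had 647, 554 and 596 TPM in T, against 1324, 1352 and 1267 in C and 1106, 1101 and 1178 in L, with C and L closer to each other than to T. Col4a1, a chain of basement membrane collagen, stood at 1963 ± 57.0 in C, 956 ± 51.9 in T and 1420.1 ± 46.7 TPM in L, and Fbln2 (fibulin) at 871 ± 32.3 in C, 329 ± 22.1 in T and 501 ± 16.8 TPM in L.

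Schwann cell genes had the largest share below both among lists with at least 5 tested members, 9 of 12, with 2 above both. All tested genes had 4.92% below and 4.8% above. The list's median log2 fold change of T against the mean of C and L was -1.94. Sox10, the transcription factor of the Schwann and oligodendrocyte lineages, had 2.32, 1.41 and 2.67 TPM in T, against 17.3, 16.8 and 15.3 in C and 7.42, 7.01 and 7.32 in L. It was 8.38-fold lower in T than in C (log2 fold change -3.07, SE 0.17) and 3.46-fold lower than in L (log2 -1.79, SE 0.18). Erbb3, the neuregulin receptor of Schwann cells, had 1.25, 1.80 and 1.47 TPM in T, against 13, 11.4 and 10.8 in C and 4.73, 5.70 and 5.13 in L, 8.41-fold lower than in C and 3.46-fold lower than in L. Foxd3, a factor of the neural crest, had 0.903, 1.44 and 0.741 TPM in T, against 8.93, 6.62 and 8.54 in C and 4.52, 2.73 and 3.32 in L, 8.44-fold lower than in C and 3.45-fold lower than in L. The folds of these 3 genes lay between 8.38 and 8.44 under C and between 3.45 and 3.46 under L. Sox10 and Foxd3 were chosen after their values were seen, so this likeness carries no weight. Cdh19, a cadherin of Schwann precursors, had 1.36, 2.71 and 1.98 TPM in T, against 9.76, 13 and 18.4 in C and 7.79, 9.99 and 7.95 in L, and L1cam, an adhesion protein of axons and glia, 2.47, 2.34 and 2.06 TPM in T, against 16.3, 16.6 and 17.4 in C and 8.43, 7.52 and 6.63 in L. The folds of these members differed from those of the 3 genes before, at 7.38 under C and 4.26 under L for Cdh19 and 9.13 and 3.80 for L1cam. Mbp, a protein of myelin, stood at 4.79 ± 0.645 in C, 1.55 ± 0.835 in T and 3.51 ± 0.752 TPM in L. The members above both were Gap43, a growth cone protein, at 8.03 ± 0.983 in C, 30.2 ± 2.46 in T and 7.72 ± 1.23 TPM in L, and S100b, a calcium-binding protein, at 6.18 ± 0.547 in C, 19 ± 1.28 in T and 10.2 ± 0.960 TPM in L. The summed level of the list was 267 to 273 TPM in T, 445 to 451 in C and 327 to 350 in L. Neuron markers were lower too: of 3 tested of 9, Tubb3 and Stmn2 were below both, Tubb3 with 9.36, 8.35 and 7.32 TPM in T, against 69.5, 72.7 and 68.3 in C and 20.4, 17.0 and 17.5 in L. Their summed level was 29.7 to 35.0 TPM in T, 237 to 241 in C and 47.8 to 51.8 in L. The part of Schwann cells or neurons in the lower levels was not tested.

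Contractile genes were below both in 14 of 25 tested (56%, against 4.92% of all tested genes). By edgeR none was above both (none at an unadjusted p under 0.05 or by any other tool run). Against the mean of C and L, 22 of the 25 were lower in T (16.9% of all tested genes were). C was set apart from both others in 21 of the 25, which also enters those 22 calls. The list's median log2 fold change was -0.53, and its count below both ran from 11 to 16 over all alternatives. Des (desmin, an intermediate filament of muscle) had 1.11, 0.749 and 0.690 TPM in T, against 9.83, 8.90 and 9.15 in C and 3.90, 2.5 and 3.72 in L. It was 12-fold lower in T than in C (log2 fold change -3.59, SE 0.21) and 4.09-fold lower than in L (log2 -2.03, SE 0.23). Myh11, smooth muscle myosin, had 0.940, 1.17 and 0.995 TPM in T, against 8.83, 8.23 and 8.45 in C and 3.74, 4.01 and 3.71 in L, and Cnn1 (calponin) 109, 108 and 116 TPM in T, against 539, 564 and 530.0 in C and 266, 273 and 279 in L. Each segment formed its own level, C highest and T lowest. Acta2 (smooth muscle actin), by far the most abundant of them, had 5051, 4479.5 and 4699 TPM in T, against 7770.3, 7853 and 7729 in C and 6803, 6545 and 7206 in L, 1.82-fold lower in T than in C and 1.46-fold lower than in L. Smtn (smoothelin) was not set apart, at 39.2 ± 1.15 in C, 60.7 ± 3.30 in T and 66.9 ± 1.43 TPM in L. The summed level of the list was 19897 to 20580 TPM in T, 28760 to 29411 in C and 24072 to 25024 in L.

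**Figure D5:**
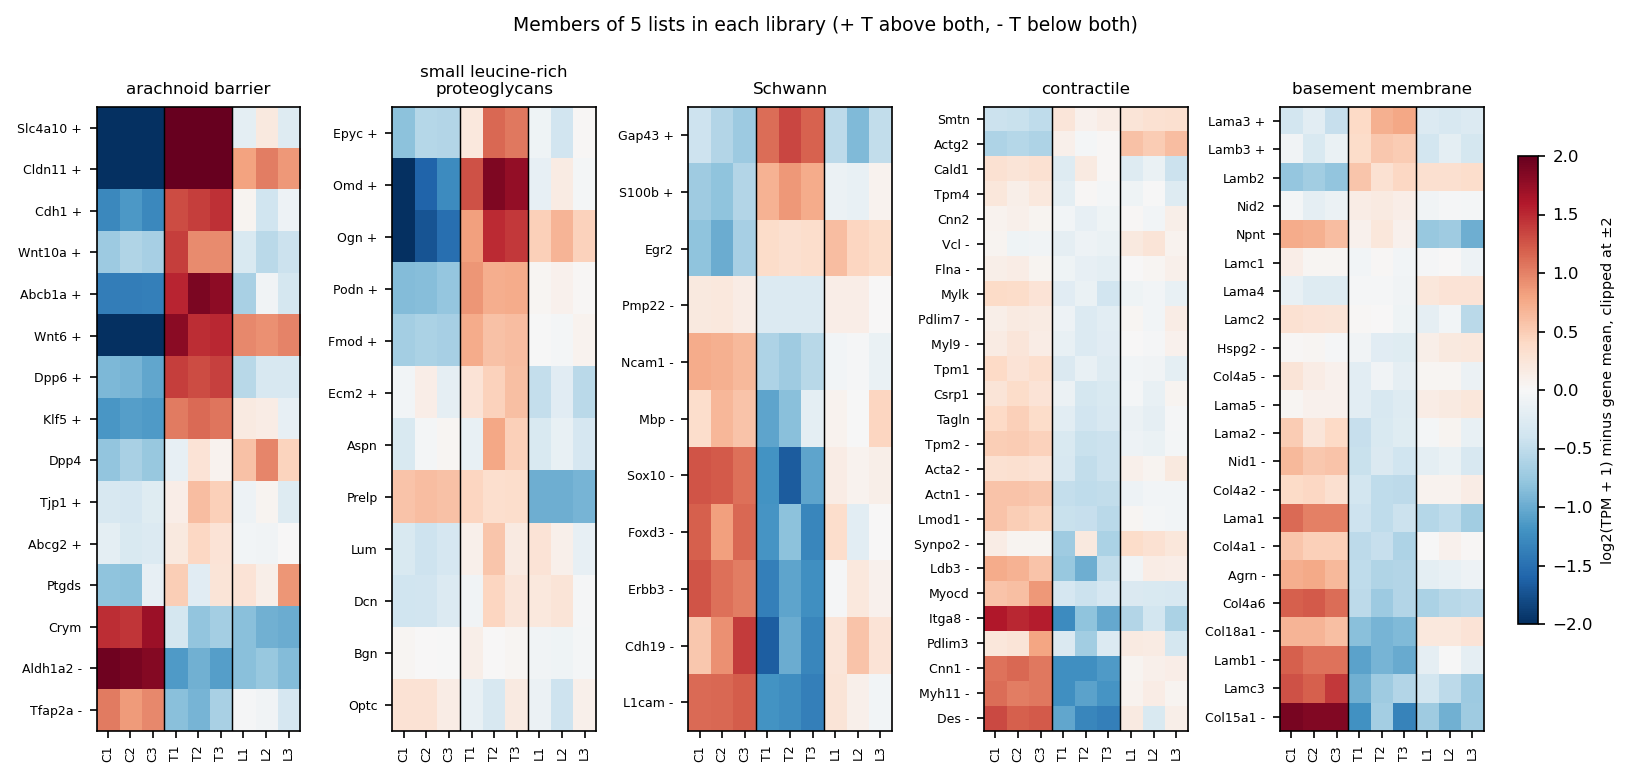
Members of 5 gene lists, all tested ones but 1 of the Schwann list, in each library; colour gives log2(TPM + 1) minus the mean of that gene over the 9 libraries, from -2 (blue) to 2 (red), and + or - after a symbol marks T above or below both. The T columns are red for 10 of 15 arachnoid genes with a + and mostly blue for 8 of 11 Schwann, 14 of 25 contractile and 11 of 22 basement membrane genes with a -.

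Mural cell markers, which share Des with the contractile list, were below both in 4 of 8 tested, against 4.92% of all tested genes. Rgs5, a marker of pericytes, had 2.30, 4.30 and 2.73 TPM in T, against 13.1, 15.5 and 14.2 in C and 14.5, 12.7 and 12 in L. It was 4.17-fold lower in T than in C (log2 fold change -2.06, SE 0.18) and 3.79-fold lower than in L (log2 -1.92, SE 0.18), and C and L overlapped. Mcam, an adhesion protein of vessel walls, had 21.1, 19.2 and 22.1 TPM in T, against 215, 214 and 204 in C and 45.7, 47.2 and 45.2 in L, and Cspg4 (NG2) stood at 59.4 ± 1.46 in C, 35.7 ± 1.96 in T and 54.6 ± 2.25 TPM in L. The summed level of mural markers was 340 to 356 TPM in T, 587 to 612 in C and 424 to 439 in L, and Kcnj8, a channel that defines pericytes, reached at most 0.119 TPM. Endothelial markers were below both in 2 of 7 tested. Their summed level did not separate T (78.0 to 86.3 TPM) from L (84.4 to 85.6), both under C (183 to 196), and Cldn5 was at 0 in all libraries while Pecam1 reached at most 0.395 TPM. Emcn was 33.2-fold lower in T than in C and 3.76-fold lower than in L at low levels, a call against L that ended under 5 alternatives, and Cdh5 was 2.11-fold lower than in C and 1.27-fold lower than in L. Pia and perivascular markers were below both in 4 of 13, and in 2 by limma on log2(TPM + 1). Among these, Postn (periostin) had 19.3, 27.6 and 27.6 TPM in T, against 95.9, 114 and 139 in C and 52.5, 70.9 and 53.2 in L, and Col15a1, a collagen near basement membranes, was 14.5-fold lower than in C and 1.62-fold lower than in L, where limma gave no call. The part of these cell types was not tested.

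Basement membrane genes were below both in 11 of 22 tested and above both in 2 (50% and 9.09%, against 4.92% and 4.8% of all tested genes). By limma on log2(TPM + 1), 7 were below both. Col18a1, whose end fragment is endostatin, had 126, 118 and 122 TPM in T, against 363, 361 and 343 in C and 261, 262 and 273 in L. It was 3.10-fold lower in T than in C (log2 fold change -1.63, SE 0.06) and 2.18-fold lower than in L (log2 -1.13, SE 0.06). Lamb1, a laminin chain of mesenchyme, stood at 140.4 ± 5.73 in C, 31.5 ± 1.52 in T and 58.8 ± 4.01 TPM in L. Col4a1 and Col4a2, whose chains form 1 collagen, were 1.53-fold and 1.5-fold lower than in L. The exceptions were chains of epithelial laminin. Lama3 had 1.05, 1.56 and 1.65 TPM in T, against 0.210, 0.345 and 0.137 in C and 0.292, 0.253 and 0.291 in L, 5.65-fold higher in T than in C and 5.61-fold higher than in L, and Lamb3 had 1.49, 1.82 and 1.76 TPM in T, against 0.850, 0.560 and 0.765 in C and 0.503, 0.686 and 0.514 in L. In C and L both genes stayed under 1 TPM, so they passed the filter through the T libraries alone. Neither passed the filter of 5 TPM in 3 libraries, where the count above both was 1. Itgb4, the integrin chain that binds this laminin in hemidesmosomes, had 19.5, 15.5 and 18.2 TPM in T, against 5.89, 7.32 and 6.18 in C and 5.42, 7.05 and 7.13 in L, also highest in T. Other chains were not set apart in T: Lamb2, Lamc1 and Col4a6 had no call between T and L.

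Fibrillar and scar matrix genes went both ways, with 7 of 41 tested above both (17.1%) and 12 below (29.3%). For this and the next 3 lists, the shares of all tested genes are 4.8% above and 4.92% below. Fbn2 (fibrillin) had 22.7, 24.2 and 22.4 TPM in T, against 0.744, 0.975 and 1.03 in C and 10.0, 9.83 and 8.41 in L, 23-fold higher in T than in C and 2.42-fold higher than in L. Col6a1 and Col6a2, neighbouring genes for chains of collagen VI, were 1.31-fold and 1.75-fold above L. Col3a1 stood at 1042 ± 66.5 in C, 2667 ± 76.3 in T and 2226 ± 80.5 TPM in L and was above both, while Col1a1 was below both at 1176 ± 62.0 in C, 842 ± 65.2 in T and 1164 ± 27.4 TPM in L. Fbln1 (fibulin) had 18.4, 16.4 and 14.1 TPM in T, against 31.8, 36.0 and 35.4 in C and 36.7, 35.2 and 42.6 in L, with C and L overlapping and T lowest. Collagen crosslinking and processing genes were below both in 7 of 21 and above both in 1. Loxl2, which crosslinks collagen, had 166, 164 and 161 TPM in T, against 799, 783 and 777 in C and 349, 363 and 360.1 in L, 5.36-fold lower than in C and 2.23-fold lower than in L. The count of 7 fell to 4 without T replicate 2, L replicate 1 or L replicate 3, and to 3 without T replicate 3. Of matrix proteases and their inhibitors, 12 of 34 were below both and 2 above. Mmp2, a gelatinase, had 162, 146 and 154 TPM in T, against 335, 336 and 323 in C and 315, 298 and 322 in L. It was 2.34-fold lower in T than in C (log2 fold change -1.23, SE 0.07) and 2.06-fold lower than in L (log2 -1.04, SE 0.07). Mmp12, an elastase of macrophages, was above both at 2.25 ± 0.755 in C, 6.18 ± 1.5 in T and 2.06 ± 0.484 TPM in L. Integrins and cadherins were below both in 11 of 38 and above both in 4, with Itga11, a collagen receptor, at 70.5 ± 2.94 in C, 32.9 ± 1.51 in T and 85 ± 2.23 TPM in L.

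Signals of the TGF-beta family other than BMPs were below both in 6 of 28 tested (21.4%) and above both in 4 (14.3%). For this and the next 2 lists, the shares of all tested genes are 4.92% below and 4.8% above. Lrrc32, which holds latent TGF-beta at the cell surface, had 32.4, 30.9 and 33.5 TPM in T, against 104, 118 and 97.4 in C and 70.7, 64.8 and 69.0 in L. Tgfb3, a ligand, had 34.6, 35.9 and 39.5 TPM in T, against 80.9, 73.6 and 75.9 in C and 61.1, 61.3 and 58.3 in L. Both were lowest in T in every library, while Tgfbr1, a receptor, was highest in T at 11.1 ± 1.07 in C, 28.5 ± 5.88 in T and 18.6 ± 3.03 TPM in L. Axon guidance genes were above both in 7 of 55 (12.7%) and below both in 6 (10.9%). Sema3c, a secreted semaphorin, had 156, 225 and 212 TPM in T, against 54.1, 58.4 and 69.9 in C and 69.5, 84.0 and 65.6 in L, 2.97-fold higher than in C and 2.69-fold higher than in L, and Unc5b, a netrin receptor, stood at 136 ± 0.996 in C, 19 ± 1.06 in T and 38.4 ± 1.37 TPM in L, lowest in T. Chemokines and cytokines were below both in 4 of 23 and above both in 1. Ccl2 and Ccl7, neighbouring chemokines that draw monocytes, were 2.62-fold and 2.14-fold under L. That count of 4 fell to 1 without T replicate 3 or without L replicate 1, and the calls for Ccl2 and Ccl7 were among those that ended. Ackr3, a scavenging receptor for chemokines, was above both at 33.5 ± 0.447 in C, 133 ± 3.69 in T and 88.5 ± 3.02 TPM in L.

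In the fit of all 9 libraries, genes of unfolded protein stress and of hypoxia and glycolysis that were set apart lay mostly below both. All tested genes had 4.92% below and 4.8% above. Genes of the unfolded protein response and amino acid stress were below both in 7 of 31; this was 11 without T replicate 1 and 4 without T replicate 3 or L replicate 1. Atf3, a stress factor, had 7.47, 5.83 and 7.44 TPM in T, against 20.1, 19.7 and 21.9 in C and 11, 12.9 and 11.7 in L. Calr (calreticulin), a chaperone of the endoplasmic reticulum, stood at 1493 ± 47.3 in C, 1256 ± 73.1 in T and 1619 ± 47.5 TPM in L. Hypoxia and glycolysis genes were below both in 9 of 34 and above both in 4. The count of 9 was 5 without T replicate 2, 4 without L replicate 3, and 3 without T replicate 3 or L replicate 1. Leaving out any 1 library kept the count above both at 3 or 4. Where 3 were below both, this list thus no longer lay mostly below. Adm (adrenomedullin, a peptide that widens vessels) had 63.0, 72.8 and 74.4 TPM in T, against 133, 133 and 120.5 in C and 138, 138 and 125 in L, with C and L overlapping and T lowest. Egln3, an oxygen-sensing hydroxylase, was above both at 7.43 ± 0.739 in C, 111 ± 2.16 in T and 58.0 ± 0.936 TPM in L. Of 37 cell cycle genes, 33 respiratory chain genes and 39 cytosolic ribosomal protein genes, none was set apart in T by the edgeR test. At an unadjusted p under 0.05 in both comparisons, 0 cell cycle, 2 respiratory chain and 0 ribosomal protein genes would be, and limma on log2(TPM + 1) called 1 respiratory chain gene. C differed from both other segments in 32 of the cell cycle genes, and T lay between C and L in 12. Mitochondrially encoded transcripts had 2 of 13 below both, mt-Nd2 and mt-Nd4, whose T libraries overlapped the others and whose calls ended under 8 alternatives each.

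Some members lay next to each other in the genome. Of 12553 tested genes, 12217 had a position in RefSeq on GRCm38.p6. Of 595 members above both with a position, 128 (21.5%) had a tested neighbour, with no other tested gene between them, that was also above both, in 68 pairs. Of 605 below both, 94 (15.5%) had such a neighbour, in 48 pairs. Among all tested genes, 4.8% were above both and 4.92% below both. A gene can have such a neighbour on either side, so the neighbour shares cannot be read directly against these. The share of other genes next to a member was not computed, and no excess is claimed. Pairs above both included Wnt6 and Wnt10a and Lamb3 and Plxna2 on chromosome 1, Col6a2 and Col6a1 on chromosome 10, Krt15 and Krt19 on chromosome 11, Omd and Ogn on chromosome 13, and Hoxc6, Hoxc5 and Hoxc4 on chromosome 15. Below both, pairs included Des and Speg and Rgs5 and Rgs4 on chromosome 1 and Ccl2 and Ccl7 on chromosome 11. Several of these pairs are related copies, for which the counting of shared reads is uncertain.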

How the data were processed

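Primary cells of mouse spinal meninges were lysed in TRIzol, and a stranded kit for total RNA was used for the libraries, per the labels' protocols. Titles gave each library its segment and number; for L replicate 3 the description instead points to the column of L replicate 2, and the title was kept. In the deposited table each gene has, for every library, an estimated count and a level in TPM. Tools in the submitters' processing notes are HISAT2 2.2.1, StringTie 2.1.4, Trimmomatic 0.39, FastQC 0.11.9 and DESeq2 1.32.0, beside the builds GRCm39 and GRCh38, with no role or order. The annotation and any use of strand in counting were not given in the sources used here, so reads of overlapping and antisense genes cannot be told apart.

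Of the deposited estimated counts, 92.7% were exactly whole, and all were rounded. Genes with at least 1 TPM in at least 3 of 9 libraries were tested (12553 of 22013 entries, 112 of which have no symbol). Some genes passed only because of the T libraries, among them Ctxn3, Slc26a7, Wnt10a, Epyc, Lama3 and Lamb3. For these, being tested and lying above both are not independent. All 9 libraries entered a single edgeR 4.0.16 quasi-likelihood fit in R 4.3.3, with TMM scaling and no term but segment. The contrasts taken were T minus the mean of C and L, T minus C, T minus L and L minus C, two-sided, each adjusted by Benjamini-Hochberg with a threshold of 0.05. T minus C and T minus L share the T libraries. Fold changes come from counts and levels from the deposited TPM, so their ratios can differ where a gene has several transcripts. The procedure was tested on simulated counts.

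Named genes were, per direction and with no overlap between T and the other libraries, the 14 with the largest smaller step and a mean of at least 2 TPM, the 6 most abundant with a smaller step of at least 1.5-fold, and, without that condition, up to 3 per list. Predicted genes, pseudogenes and near-identical families were left out of the first 2 sets. The 50 lists hold 1330 genes, 1082 tested, of which 137 were above and 166 below both. The members and lists were chosen with earlier results of these data known. Alternatives were other scalings and filters, DESeq2 1.42.0, limma 3.58.1 on log2(TPM + 1) and log2(TPM + 0.1), a replicate block and leaving out each library. The counts of list members under each alternative were added after seeing the data. No other columns of per-sample values were present. Some genes the rule names are not reported here.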

Additional observations from a re-analysis of the deposited data

How the results depend on the processing

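The 6 counts over all genes (T against the mean of C and L in each direction, T above both, T below both, C apart and L apart) stayed within 1.5 times their reported value under each of the 17 alternatives. Leaving out 1 library at a time gave 458 to 765 genes above both, 429 to 758 below both, 1617 to 2617 higher and 1579 to 2441 lower than the mean of C and L, 4118 to 5274 with C apart and 554 to 914 with L apart. No member turned to the opposite call in any alternative. Of the 603 and 618 members, limma on log2(TPM + 1) also called 512 and 433, and edgeR without T replicate 3 called 451 and 424. Genes higher in T than the mean of C and L made up 51.5% of calls in edgeR, 60.5% with library totals only, 62.6% by limma on log2(TPM + 1) and 63.4% on log2(TPM + 0.1). A fit with the replicate number as a block called 569 genes above both and 561 below, and adjusting the larger p of both comparisons gave 525 and 516. Correlations of deviations between libraries of the same number ran from -0.148 to 0.291, and a library was closest to its own number in 5 of 18 comparisons, so the numbers were not taken to pair the samples. Of 139 named genes, 116 kept the call in each alternative that tested them; 21 of the 139 did not pass the filter of 5 TPM in 3 libraries and had no value there. Of 2342 gene and alternative combinations, 2259 kept the call, 83 lost it and 0 reversed. The losses included those of C1s1, mt-Nd2, mt-Nd4, Col2a1 and Heyl, under 6 to 9 alternatives each. List counts moved by over 1.5 times in 98 of 1700 cases. The cause of these changes was not tested. Depth limits genes such as Ptgdr, with 1 count over the C libraries.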

Other observations

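Antioxidant genes were above both in 3 of 36 tested (8.33%, against 4.8% of all tested genes), and 2 were below both without T replicate 1. Against the mean of C and L, 18 of the 36 were lower in T and 6 higher (16.9% and 17.9% of all tested genes), with a median log2 fold change of -0.23. C was set apart from both others in 28 of the 36. Nfe2l2 (NRF2, the factor that switches on antioxidant genes) had 203, 227 and 217 TPM in T, against 141, 138 and 141 in C and 175, 178 and 161 in L, 1.41-fold and 1.24-fold higher. Mgst1, a membrane glutathione transferase, stood in T at 110.1 ± 8.22 TPM, in C at 55.7 ± 3.96 and in L at 74.2 ± 9.64 (mean and SD of 3 libraries, as for other means here), and Aldh3a1, an aldehyde dehydrogenase, at 14.8 ± 0.318 in C, 21.1 ± 1.76 in T and 8.31 ± 0.957 TPM in L. In limma on both TPM scales and in the other edgeR and DESeq2 fits the count above both was again 3. Immediate early and heat shock genes were below both in 4 of 34 (Atf3, Klf2, Ier3 and Jun), and in 1 without T replicate 3. The 4 were 11.8%, against 4.92% of all tested genes. Ier3 had 56.4, 53.3 and 52.4 TPM in T, against 103, 104 and 107 in C and 67.3, 67.9 and 61.5 in L. Of p53 targets and cell cycle inhibitors, 2 of 26 were above both (7.69%, against 4.8% of all tested genes). Plk2, a polo-like kinase, had 352, 376 and 363 TPM in T, against 195, 183 and 190 in C and 232, 236 and 215 in L, and Perp, a protein of desmosomes, stood at 192 ± 14.6 in C, 256 ± 10.8 in T and 135 ± 11.7 TPM in L. All T libraries of these genes lay outside the other 6.

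Retinoic acid genes were above both in 2 of 20 tested (10%) and below both in 1 (5%), against 4.8% and 4.92% of all tested genes. Rarres1, a gene induced by retinoids, had 87.9, 86.2 and 89.0 TPM in T, against 42.3, 41.6 and 41.6 in C and 42.0, 33.0 and 29.8 in L, so T was highest and C and L overlapped. Genes of prostaglandin and vasoactive signals went both ways, 4 of 27 above both and 3 below, with Adora2b, an adenosine receptor, at 4.79 ± 0.362 in C, 1.80 ± 0.232 in T and 3.65 ± 0.763 TPM in L. In lipid synthesis, Scd1, which desaturates fatty acids, was above both at 125 ± 12.4 in C, 252 ± 11.5 in T and 189 ± 14.5 TPM in L. Fasn, which makes them, was below both at 112 ± 4.63 in C, 80.4 ± 6.41 in T and 101 ± 5.06 TPM in L. The pair were 2 of 30 tested, 1 in each direction (3.33%), under the 4.8% and 4.92% of all tested genes. Among cartilage, tendon and bone markers, Sox9, a factor of cartilage, had 6.66, 5.89 and 5.56 TPM in T, against 3.50, 4.20 and 4.02 in C and 3.25, 2.65 and 3.44 in L, while Col2a1, the collagen of cartilage, was below both at 28.1 ± 0.850 in C, 7.90 ± 0.769 in T and 9.84 ± 0.301 TPM in L, a call that ended under 6 alternatives. Interferon response genes had 1 of 26 above both (3.85%), Trim25, 1.55-fold over C and over L; the count was 2 without T replicate 2 and 3 by limma on both TPM scales. Of antigen presentation genes, Tapbp was 2.42-fold over C and 1.20-fold over L, and its call ended under 5 alternatives. Its partner B2m was 1.24-fold under C and 1.23-fold under L, with TPM ranges that overlapped, and its call ended in limma.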
